A study of Capra hircus with 6 samples.

Results

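The genes of the nuclear lamina and the HMGB chromatin proteins were examined in dermal papilla cells from the secondary hair follicles of cashmere goats (SHF-DPCs) after treatment with all-trans retinoic acid (ATRA). They comprised LMNA, LMNB1, LMNB2, LBR, EMD, TMPO, HMGB1, HMGB2, and HMGB3, which are 9 of the 15944 genes in the deposited count table, and each was taken by its gene symbol. All 9 were among the 12588 genes that passed the expression filter. The control group (3 libraries) was cultured in DMEM/F-12 with fetal bovine serum and no ATRA. The ATRA-treated group (3 libraries) received ATRA at 100 µM for 24 h. Both groups were wild-type primary cultures at passages 4 to 7, grown from scapular skin of Albas cashmere goats aged 3 years. The study took these cells from 3 separate animals, but which animal gave which library is not stated.

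The nuclear lamina is a mesh of lamin filaments that lines the inner face of the nuclear envelope and anchors chromatin. LMNA encodes the A-type lamins, whereas LMNB1 and LMNB2 encode the B-type lamins. LBR, EMD (emerin), and TMPO (the LAP2 proteins) bind lamins and chromatin there. The HMGB proteins bend DNA within the nucleus, and HMGB1 can also leave the cell and act as an alarm signal. Loss of lamin B1 and HMGB proteins is widely used as a sign of cellular senescence, the lasting arrest of cells that no longer divide. In hair follicles, the dermal papilla is the cluster of specialised fibroblasts that directs the growth of the overlying epithelium. Gene counts do not measure senescence itself.

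Control libraries held 36887160 to 38012771 counts each, and ATRA libraries held 35532339 to 36870939. ATRA replicate 2 stood apart from the other ATRA libraries in its gene counts (chi-square per degree of freedom 17.3 and 18.4, against 5.01 for the other ATRA pair and 6.13 to 8.94 for the control pairs), so values without it are given where they bear on a result. Levels are given as normalized CPM, that is, CPM scaled by edgeR's TMM method. Differences are log₂FC of ATRA over control from edgeR's quasi-likelihood test, with Benjamini-Hochberg adjustment over all tested genes. The median log₂FC of all tested genes was 0.04. Scaling by library size only would move that median to 0.52, and each difference below is relative to this choice. In bulk RNA-seq, fewer cells of a type cannot be told apart from less RNA per cell.

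Transcripts of 8 of the 9 genes fell with ATRA, and EMD alone rose. The lamins fell furthest, with LMNB1 at 9.76%, LMNA at 12.8%, and LMNB2 at 21.4% of the control mean. LBR, TMPO, HMGB1, HMGB2, and HMGB3 were at 35.7% to 45.4% of it. The median log₂FC over the 9 genes was -1.41. The response to ATRA was broad: at an adjusted p under 0.05, 38.7% of all tested genes were lower and 40.9% were higher. With |log₂FC| above 1 and p under 0.05, 8 of the 9 genes were lower and 0 were higher, against 17.3% and 13.7% of all tested genes. The groups did not overlap for any of the 9, but the same held for 80.1% of all tested genes.

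**Figure D1:**
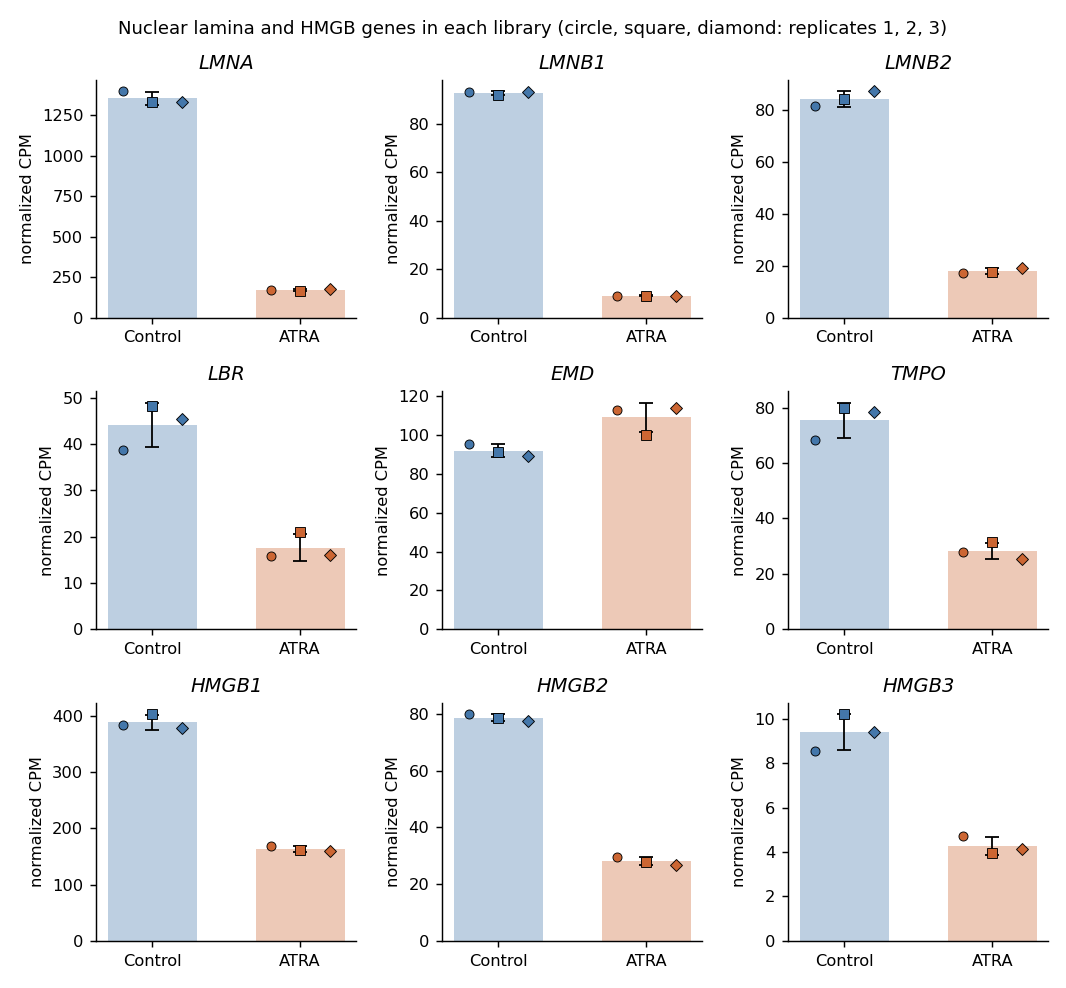
Normalized CPM of each gene in the 3 control and the 3 ATRA libraries. Bars give the group mean, error bars the SD, and circles, squares, and diamonds replicates 1, 2, and 3. The ATRA libraries lie below the control libraries for 8 genes and above them for EMD, where the gap is narrow.

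The lamin genes were lower by the widest margins. LMNA encodes lamins A and C, the lamins that give the nucleus its stiffness. Its normalized CPM was 1401, 1331, and 1333 in control replicates 1, 2, and 3 and 174, 167, and 179 in the ATRA replicates. Every ATRA library was thus far below every control library, with means of 1355 ± 39.4 and 173 ± 5.93 (SD, n = 3). The log₂FC was -2.97 (SE 0.0609, edgeR adjusted p = 2.67e-18), with a 95% interval from -3.09 to -2.84. Counts per gene do not separate lamin A from lamin C, which come from the same gene by alternative splicing.

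LMNB1 encodes lamin B1, a B-type lamin that stays attached to the membrane by its farnesyl group. The normalized CPM was 93.2, 91.9, and 93.2 in the control libraries and 9.14, 9.16, and 8.87 in the ATRA libraries. This was the tightest gene of the 9 within both groups, with a coefficient of variation of 0.818% over control libraries and 1.79% over ATRA libraries. These ATRA levels rest on 367 to 404 counts per library. LMNB1 had a log₂FC of -3.36 (SE 0.0706, edgeR adjusted p = 3.44e-18), and 3.84% of all tested genes had a log₂FC at or below it. In the reference annotation, a pseudogene overlaps LMNB1. It is not a row of the count table, and whether reads were shared with it is not known.

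LMNB2 encodes the other B-type lamin. Control libraries held 81.2, 84.1, and 87.1 normalized CPM, and ATRA libraries held 17.3, 17.4, and 19.3. The groups were well separated, although ATRA replicate 3 was 7.12% above its group mean. LMNB2 fell by 2.22 on the log₂ scale (SE 0.0712, edgeR adjusted p = 1.68e-15). Its 95% interval, from -2.37 to -2.07, did not meet that of LMNA or of LMNB1.

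Transcripts of the proteins that tie chromatin to the lamina did not move as a block. LBR encodes the lamin B receptor, which binds lamin B and heterochromatin and also carries sterol reductase activity. It measured 38.9, 48.2, and 45.5 normalized CPM in control libraries and 15.9, 20.9, and 16.1 in ATRA libraries. Control replicate 1 was the lowest control, and ATRA replicate 2 was the highest treated library, at 18.6% above its group mean. The log₂FC of LBR was -1.32 (SE 0.105, edgeR adjusted p = 2.06e-09) with all libraries and -1.47 without ATRA replicate 2.

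TMPO encodes the LAP2 isoforms, of which some span the inner nuclear membrane and LAP2α stays in the nucleoplasm, where it binds A-type lamins. Normalized CPM was 68.2, 79.9, and 78.2 in control libraries against 28.0, 31.4, and 25.5 in ATRA libraries. As for LBR, the lowest control was replicate 1 and the highest ATRA library was replicate 2. The difference in TMPO was a log₂FC of -1.41 (SE 0.0828, edgeR adjusted p = 1.57e-11), and it was -1.50 without ATRA replicate 2. The isoforms are not separated by these counts.

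EMD encodes emerin, a LEM-domain protein of the inner nuclear membrane, and was the exception. It held 95.5, 91.1, and 89.0 normalized CPM in the control libraries and 113, 100.2, and 114 with ATRA. The lowest ATRA value, in replicate 2, was close to the highest control value, in replicate 1. EMD rose by a log₂FC of 0.25 (SE 0.0633, edgeR adjusted p = 0.00165), with a 95% interval from 0.11 to 0.38. Without ATRA replicate 2 the rise was 0.30. The study's methods name the t.test function of R. Applied here to log₂(CPM + 1) with the same adjustment over all tested genes, it no longer called EMD (adjusted p = 0.0524), although the log₂FC was nearly the same (0.24). EMD lay at the 60.6 percentile of all log₂FC values, so its rise was of ordinary size among these genes.

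All HMGB genes measured here were lower with ATRA. HMGB1 encodes the most widely expressed HMGB protein. Its normalized CPM was 385, 403, and 378 without ATRA and 169, 161, and 159.8 with it. Replicates lay close together within each group, and the means were 389 ± 13.0 and 163 ± 4.78 (SD, n = 3). HMGB1 fell by 1.25 on the log₂ scale (SE 0.0554, edgeR adjusted p = 2.25e-13). Mammalian genomes carry processed copies of HMGB1, and how reads shared with such copies were counted is not given in the sources used here.

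HMGB2 encodes an HMGB protein that is abundant in dividing cells. Levels were 79.8, 78.3, and 77.4 normalized CPM in control libraries and 29.6, 27.6, and 26.9 in ATRA libraries. Its coefficient of variation over control libraries, 1.57%, was the lowest of the 9 genes after LMNB1. The log₂FC of HMGB2 was -1.48 (SE 0.0661, edgeR adjusted p = 2.43e-13).

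HMGB3, a family member known from stem and progenitor cells, held 8.57, 10.2, and 9.40 normalized CPM without ATRA and 4.72, 3.94, and 4.13 with it. It was the least counted of the 9 genes, with 171 to 330 counts per library, and its lowest count carries a counting error (1 Poisson SD) of 7.65%. The groups nevertheless did not overlap. HMGB3 had a log₂FC of -1.14 (SE 0.126, edgeR adjusted p = 1.56e-07), with the widest 95% interval, from -1.40 to -0.87.

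**Figure D2:**
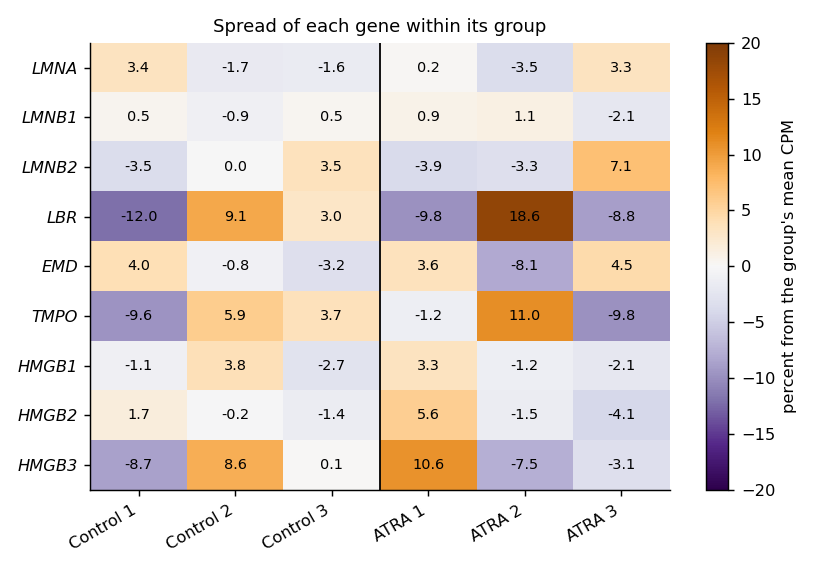
Percent by which each library's normalized CPM departs from its group's mean (colour and printed value), for the 9 genes in rows and the 6 libraries in columns. LBR and TMPO share their lowest control library (replicate 1) and their highest ATRA library (replicate 2), while the largest departure of LMNB1 is -2.06%.

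Within the groups, LBR and TMPO departed to the same side of the group mean in every library, which was read off without a test. In control replicate 1, LBR, TMPO, and HMGB3 departed from the group mean by -12.0%, -9.62%, and -8.74%, whereas EMD and LMNA departed by 3.98% and 3.36%. In ATRA replicate 2, LBR and TMPO departed by 18.6% and 11.0%, and EMD, HMGB3, and LMNA by -8.08%, -7.52%, and -3.49%. HMGB3 was thus not on the side of LBR and TMPO in that library. These departures were small beside the difference between the groups for every gene but EMD.

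**Figure D3:**
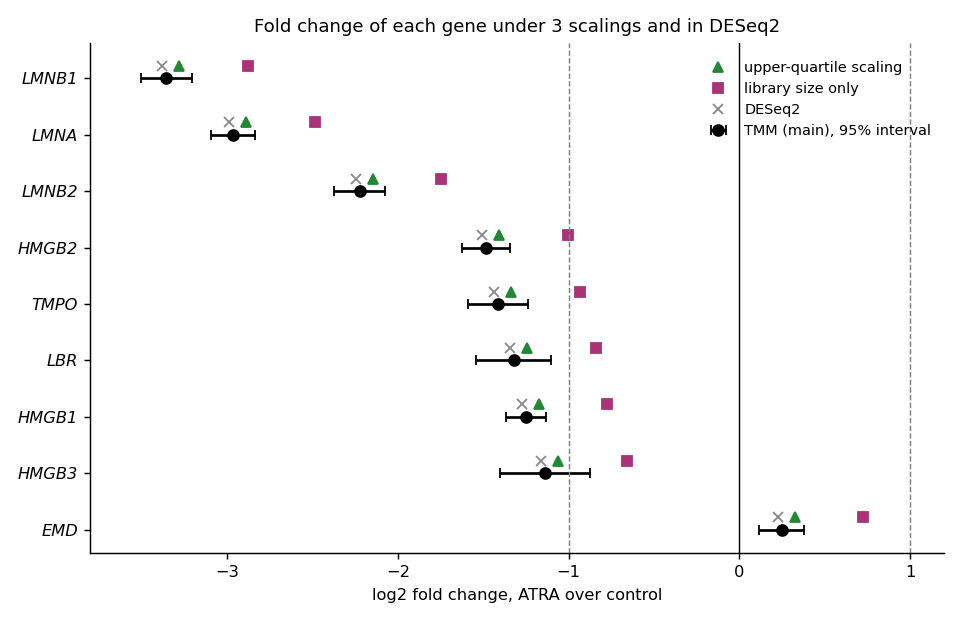
The log₂FC (ATRA over control) of each gene with TMM scaling and its 95% interval (black), with upper-quartile scaling (triangles), with library size only (squares), and in DESeq2 (crosses). Dashed lines mark a log₂FC of -1 and 1. No gene changes sign, and LMNA, LMNB1, LMNB2, and HMGB2 stay below -1 under every scaling drawn.

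Ordered by log₂FC, the lamins stood apart from the rest. LMNB1 came first, then LMNA, then LMNB2, and their 95% intervals did not meet one another or those of the other genes. HMGB2, TMPO, LBR, HMGB1, and HMGB3 followed, and the interval of each overlapped that of the next. The size of these changes depended on scaling more than their direction did. By library size only, the log₂FC was -2.88 for LMNB1, -2.49 for LMNA, -1.75 for LMNB2, and -1.01 for HMGB2. LBR, TMPO, HMGB1, and HMGB3 were then at -0.84, -0.93, -0.77, and -0.66, and EMD was at 0.73. Accordingly, 4 rather than 8 genes passed |log₂FC| above 1 with that scaling, against 1471 of all tested genes that were lower (2174 with TMM).

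Ratios within a library do not depend on scaling, and they set related genes directly against each other. Counts were not corrected for gene length, so the change in a ratio can be read but its level cannot. LMNA counts per LMNB1 count were 15.0, 14.5, and 14.3 in control libraries and 19.0, 18.3, and 20.2 in ATRA libraries, a difference of 0.39 on the log₂ scale. LMNB2 counts per LMNB1 count were 0.871, 0.915, and 0.935 without ATRA and 1.90, 1.90, and 2.18 with it, a difference of 1.13 on the log₂ scale. Each ATRA library thus held more LMNB2 counts per LMNB1 count than any control library. Among lamin counts, LMNA took 88.4% ± 0.432 without ATRA and 86.5% ± 0.254 with it (SD, n = 3).

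HMGB1 counts per HMGB2 count were 4.82, 5.15, and 4.89 in control libraries and 5.69, 5.84, and 5.94 in ATRA libraries, 0.23 higher on the log₂ scale. HMGB3 counts per HMGB2 count were 0.107, 0.130, and 0.121 in control libraries and 0.159, 0.143, and 0.154 in ATRA libraries, 0.35 higher on the log₂ scale. LMNB1 and HMGB2, the denominators, had the lowest log₂FC of their families, which fixes the direction of all 4 ratios, so the ratios describe sizes only. The exact permutation test, two-sided, gave p = 0.1 for each, the smallest value that 3 against 3 libraries allow, and is no independent evidence of direction.

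**Figure D4:**
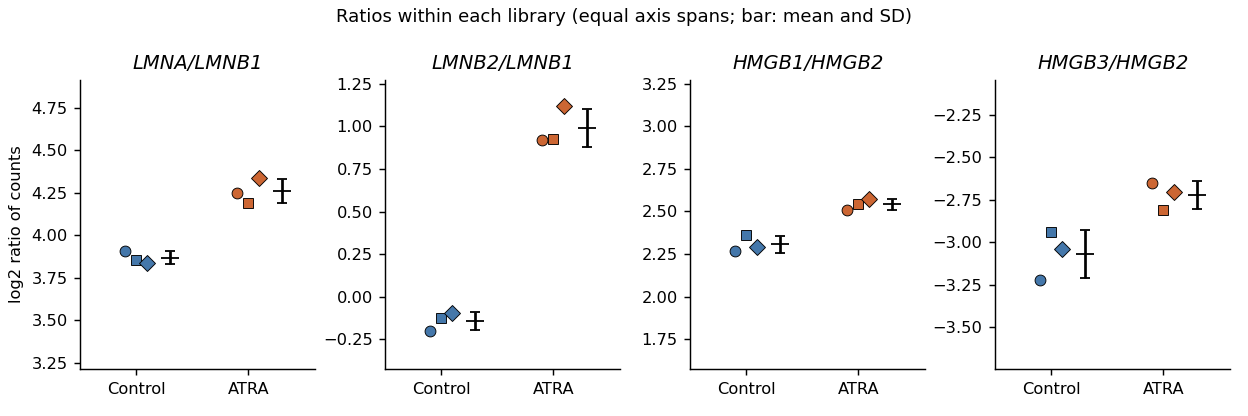
Log₂ ratio of the counts of gene pairs within each library (circle, square, and diamond for replicates 1, 2, and 3), with the group mean and SD beside the points. All panels span the same range on the log₂ axis. LMNB2/LMNB1 shows the widest gap between the groups (1.13) and HMGB1/HMGB2 the narrowest (0.23).

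The genes whose levels ran closest to those of LMNA, LMNB1, and HMGB2 were found by the root mean square difference of log₂ normalized CPM, each relative to its control mean, over the 6 libraries and among 10674 genes. For LMNA they were ANXA2 (0.0371), ACTG1 (0.0379), and COL6A1 (0.0395). For LMNB1 they were MDFI (0.0323), CNN2 (0.0403), and ACTN1 (0.0409). For HMGB2 they were YWHAH (0.0332), CERCAM (0.0401), and DUSP7 (0.0455). These values describe likeness over 6 libraries in which the group difference dominates. ACTG1 has near-identical relatives, so its counts are uncertain.

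Other genes of the inner nuclear membrane and of the LINC complex, which links the lamina to the cytoskeleton, were mixed. Of 17 tested, 4 rose and 13 fell (adjusted p under 0.05), with a median log₂FC of -0.33. SYNE2 and SYNE3, which encode nesprins, had log₂FC values of -2.85 (SE 0.0715) and -2.65 (SE 0.0915). NRM (nurim) and TMEM43 fell as well (-1.94 and -1.39). LEMD2, which encodes a LEM-domain protein like emerin, rose from 41.9 ± 1.94 to 96.8 ± 7.08 normalized CPM (SD, n = 3), a log₂FC of 1.21 (edgeR adjusted p = 1.16e-11). TMEM201, ANKLE2, and LEMD3 were higher by 0.97, 0.35, and 0.25. The sign of 6 genes (BANF1, SUN1, SUN2, TOR1A, TOR1B, and TOR1AIP1) turned with library size only, which gave 8 higher and 7 lower.

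Among genes linked to the maturation of prelamin, which are not all enzymes, some calls depended on scaling. Of the 6 lamin processing genes, 3 were higher, 1 was lower, and 2 did not pass, with a median log₂FC of 0.14. With library size only, 5 were higher and 0 lower, with a median of 0.62. ZMPSTE24, the protease that cleaves prelamin A, was at 58.1 ± 2.53 normalized CPM without ATRA and 61.4 ± 2.83 with it (SD, n = 3), a log₂FC of 0.08 (95% interval -0.06 to 0.22, edgeR adjusted p = 0.267). FNTA, a farnesyltransferase subunit, had a log₂FC of 0.10 (edgeR adjusted p = 0.15). Both passed as higher with upper-quartile scaling (0.16 and 0.18) and with library size only (0.56 and 0.58). RCE1, ICMT, and NARF were higher by 0.33, 0.20, and 0.17. FNTB, the other farnesyltransferase subunit, was lower by TMM scaling (log₂FC -0.37) and at 0.10 with library size only.

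LBR binds HP1 proteins and shares its enzymatic step with sterol reductases. Of these 6 genes, 0 were higher, 5 were lower, and TM7SF2, the closest sterol reductase relative of LBR, did not pass (log₂FC -0.29, edgeR adjusted p = 0.269). DHCR7, which catalyses the last step of cholesterol synthesis, had a log₂FC of -3.18 (SE 0.0935), against -1.32 for LBR. The HP1 genes CBX5 and CBX3 were both at -0.58, and CBX1 was at -0.22. With library size only, 2 of the 6 were lower, 1 was higher, and CBX1 changed sign.

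Beyond the HMGB genes, the other HMG families split. Of 11 tested, 4 were higher, 6 were lower, and HMG20B did not pass (log₂FC -0.07, edgeR adjusted p = 0.339). HMGA1, an architectural AT-hook protein, went from 302, 222, and 296 counts in the control libraries to 12431, 11161, and 11430 in the ATRA libraries. Its normalized CPM was 8.60 ± 1.53 and 272 ± 17.6 (SD, n = 3), a log₂FC of 4.99 (SE 0.0991, edgeR adjusted p = 4.03e-18). HMGA2 and HMGXB3 rose by 2.05 and 1.54, and HMGXB4 rose by 0.24. The nucleosome-binding genes HMGN5, HMGN2, and HMGN3 fell (log₂FC -1.28, -1.24, and -0.86), as did SSRP1, a subunit of the FACT histone chaperone (-0.79).

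Of the 6 tested genes for HMGB1 receptors and partners, 4 were higher, 1 was lower, and 1 did not pass (median log₂FC 1.28). TLR2, a receptor for extracellular HMGB1, went from 0.438 ± 0.129 to 9.95 ± 0.177 normalized CPM (SD, n = 3), a log₂FC of 4.49 (edgeR adjusted p = 9.23e-14). HAVCR2 and TLR4 rose by 1.71 and 0.85. AGER, which encodes the receptor RAGE, was higher at very low counts (5 to 18 in control and 40 to 79 in ATRA libraries). CXCL12, the chemokine that pairs with HMGB1, fell from 480 to 594 counts per control library to 13 to 17 counts per ATRA library (log₂FC -5.53). MYD88, an adaptor of Toll-like receptors, had a log₂FC of -0.19 (edgeR adjusted p = 0.0603). It passed as lower with RLE scaling (edgeR adjusted p = 0.0388) and as higher with library size only (log₂FC 0.29, edgeR adjusted p = 0.00562).

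**Figure D5:**
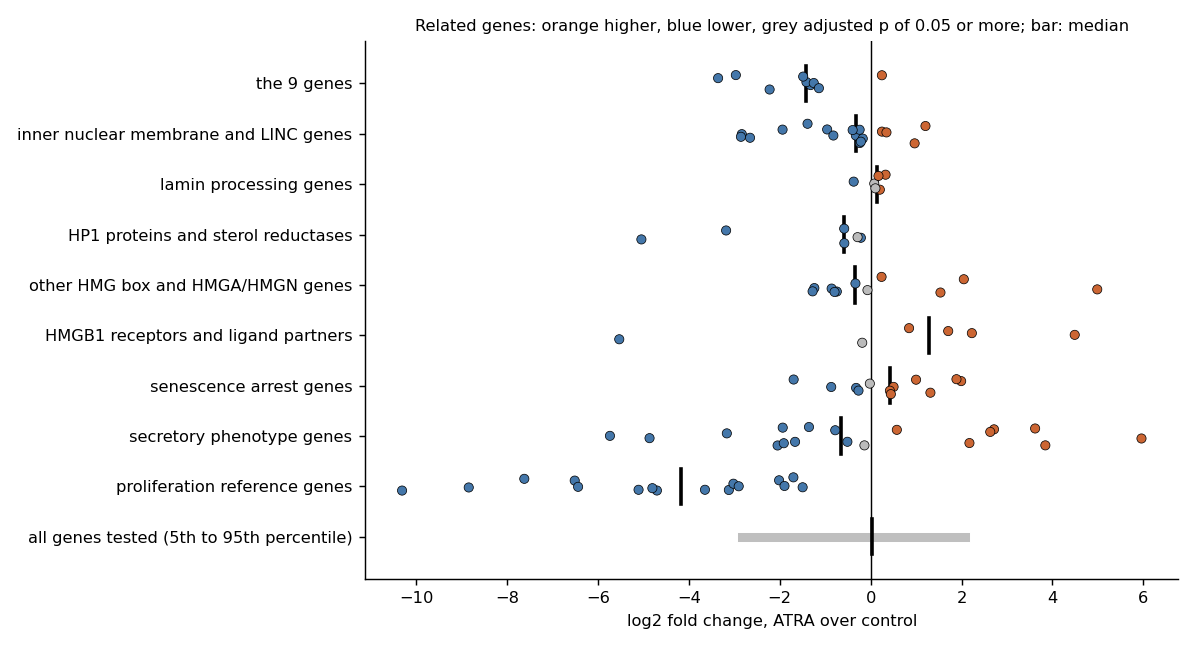
The log₂FC (ATRA over control) of the genes of each related list, 1 point a gene, with the list's median as a bar. Orange and blue mark genes that rose and fell, grey those that did not pass, and the grey band the 5th to 95th percentile of all tested genes. Proliferation genes lie at or below -1.50, while the senescence arrest and secretory lists hold genes on both sides.

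Arrest genes linked to senescence also went both ways. Of 12 tested, 7 were higher, 4 were lower, and 1 did not pass, with a median log₂FC of 0.43. CDKN1A, which encodes the cyclin-dependent kinase inhibitor p21, rose from 155 ± 3.91 to 616 ± 13.0 normalized CPM (SD, n = 3), a log₂FC of 1.99 (SE 0.0565, edgeR adjusted p = 2.74e-16). CDKN2D, MDM2, and GADD45A rose by 1.89, 1.31, and 1.00. CDKN2A, the gene of p16, was matched to a row described as a CDKN2A-like gene, and this row held 301 to 365 counts in control and 418 to 450 counts in ATRA libraries (log₂FC -0.02, 95% interval -0.24 to 0.20, edgeR adjusted p = 0.883). With library size only, the row passed as higher (log₂FC 0.46, adjusted p = 0.000733). CDKN2C fell by 1.69. GLB1, the gene of the lysosomal β-galactosidase used to stain senescent cells, fell by 0.87. CDKN2B was lower with TMM (log₂FC -0.32) and changed sign with library size only.

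Genes of the senescence-associated secretory phenotype, the factors that senescent cells release, were divided as well. Of 18 tested, 7 were higher and 10 lower, and ICAM1 did not pass (log₂FC -0.14, edgeR adjusted p = 0.549). The cytokine genes IL1A, CXCL8, GDF15, and IL6 rose by 5.96, 3.84, 3.62, and 2.71 on the log₂ scale. HGF, CCL2, and PLAU fell (log₂FC -5.74, -4.86, and -1.93).

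Proliferation genes fell without exception among the 16 tested, with log₂FC values from -10.31 (MKI67) to -1.50 (PCNA) and a median of -4.17. PCNA, CCNA2, MYBL2, and TYMS, at -1.50, -1.70, -1.90, and -2.01, fell by less than LMNB2 on this scale (-2.22). MKI67, a marker of cycling cells, went from 5063 to 5845 counts per control library to 4 to 7 counts per ATRA library. RRM2, FOXM1, and TOP2A had log₂FC values of -8.84, -7.62, and -6.51. These values moved with those of the lamin and HMGB genes, and their part in the results was not tested.

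Cell type markers moved with the groups too. Among dermal papilla markers, 9 of 10 tested were lower (7 with library size only) and SOX18 did not pass (log₂FC 0.47, edgeR adjusted p = 0.326). Their summed level went from between 55010 and 57826 normalized CPM in the control group to between 2451 and 2553 with ATRA. ACTA2, VCAN, COL1A1, and BMP4 had log₂FC values of -9.62, -5.66, -5.62, and -4.67, and VIM, the mesenchymal filament vimentin, was at -3.59. ACTA2 is nearly identical to other actin genes, so its counts are uncertain. Of the defining markers of the papilla in tissue, PROM1, ALPL, and CORIN held 0 or 1 count in every library of both groups. SOX2 held 0 to 16 counts. PROM1 encodes CD133, and the study reported positive immunofluorescence for CD133 and α-SMA (encoded by ACTA2) in its purified cells. That staining is of protein, whereas the counts are of RNA.

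Summed over each list, markers of other cell types were low in both groups beside those of the papilla. With ATRA this did not hold for every gene. MITF and CD14, at means of 32.7 and 31.3 normalized CPM with ATRA, were near VCAN (32.4). Both were above BMP4 (15.9) and ACTA2 (8.37), whereas COL1A1 was at 558. Keratinocyte markers summed to between 2.55 and 4.27 normalized CPM in control and between 5.24 and 5.83 in ATRA libraries, with 1 of 1 tested higher (KRT10) and with TP63, CDH1, EPCAM, and DSP at 0 to 5 counts. The basal keratin genes KRT14 and KRT5 were too low to be tested, with 20, 14, and 10 and with 2, 7, and 3 counts in the control libraries against 3, 0, and 0 and 0 in each of the ATRA libraries. Endothelial markers summed to between 0.591 and 1.05 against 6.19 and 9.11, with 2 of 3 tested higher (PECAM1 and TEK). VWF did not pass (log₂FC 0.06, edgeR adjusted p = 0.909), and KDR, not tested, held 5, 6, and 10 counts in control and 2, 1, and 0 in ATRA libraries. Most of the summed level with ATRA was PECAM1, at 6.10 ± 1.43 normalized CPM (SD, n = 3). PECAM1 had 0 counts in the control libraries and 206 to 340 in the ATRA libraries, at least 64.7-fold higher against a floor of 3 counts per library, while CDH5 was at 0 or 1. Leukocyte markers summed to between 9.15 and 12.8 against 41.1 and 44.0, with 2 of 2 tested higher (CD14 and CD68) and CD3E, ITGAM, and CSF1R at 0 to 7 counts. Melanocyte markers summed to between 16.1 and 17.6 against 32.2 and 39.0, with MITF higher, PMEL lower, and TYRP1 at 0 or 1 count. The part of these shifts in the lamin and HMGB differences was not tested.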

How the data were processed

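RNA was selected by poly(A) with oligo(dT) beads before sequencing. The authors deposited raw counts of reads per gene, not normalized, for 3 control and 3 ATRA libraries. HISAT2, featureCounts, and DESeq2 are named in the submitters' processing notes without their roles. The genome build, annotation, and strand setting are not given in the sources used here, so no coordinates are printed. All 15944 identifiers matched symbols of the reference table.

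From the counts, genes were filtered with edgeR's filterByExpr (12588 kept), scaled by TMM, and tested with the quasi-likelihood test (robust, two-sided, no covariate). Normalized CPM uses the total over tested genes times the TMM factor. A prior count of 0.125 entered each log₂FC, whose SE was derived from its F statistic. Each library held 35532339 to 38012771 counts. Counting errors and floors cover counting only. Groups came from the sample labels, which name 1 batch, and p-values measure the spread between these cultures. Alternatives were RLE, upper-quartile, and library-size scaling, DESeq2, R's t.test function, which the study's methods name and which was applied here to log₂(CPM + 1), other filters, the replicate block, and each library left out. The tests were tested on simulated data.

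The members and lists were chosen with earlier results of these data known. Each list contributed at most 4 rising and 4 falling genes, those of largest absolute log₂FC with a mean CPM of at least 1, and an adjusted p under 0.05, with CDKN1A, CDKN2A, MKI67, ZMPSTE24, HMGA1, and HMGA2 in any case. A few list genes are counted but not reported here by name. FNTA, TM7SF2, CBX1, HMG20B, AGER, MYD88, ICAM1, VIM, TEK, VWF, PCNA, CCNA2, MYBL2, TYMS, the genes that turned with scaling, and markers near 0 were named after their values were seen. RCE1, FNTB, CCL2, and CDKN2A were matched, after the table was seen, to the single row carrying that symbol under a LOC identifier. Fits ran in edgeR 4.0.16 and DESeq2 1.42.0 under R 4.3.3, and figures were drawn with matplotlib 3.10.9 (Python 3.11.15).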

Additional observations from a re-analysis of the deposited data

How the results depend on the processing

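Over all alternatives, 125 values of the log₂FC of the 9 genes kept their direction and their side of an adjusted p of 0.05, and 1 did not, EMD with R's t.test function (0.24, adjusted p = 0.0524), which left 0 of the 9 genes higher. None changed sign. That function also put HMGB3 at -0.98, so that 7 of the 9 genes were past |log₂FC| above 1. With library size only, 7921 of all tested genes were higher and 2861 lower (5151 and 4877 with TMM), and 3390 and 1471 passed |log₂FC| above 1 (1730 and 2174 with TMM), which left 4 of the 9 genes past that threshold, without LBR, TMPO, HMGB1, and HMGB3. The same scaling gave 8 higher and 7 lower inner nuclear membrane and LINC genes, 5 higher and 0 lower lamin processing genes, 1 higher and 2 lower HP1 and sterol reductase genes, and 2 lower arrest genes. Lamin processing genes numbered 5 higher with upper-quartile scaling and 1 with R's t.test function. Among HMGB1 receptors and partners, 2 rather than 1 were lower with RLE, DESeq2, or no filter, and 1 to 2 with a library left out (2 without control replicate 2, control replicate 3, or ATRA replicate 2). Beyond these, the cause was not tested.

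With the replicate number as a block, 5123 genes were higher and 4869 lower, and the block changed no call of the 9 genes (EMD 0.25, LMNB1 -3.36). Same-numbered libraries correlated at 0.0892, 0.0299, and -0.0764 in their deviations, so the numbers were not taken to pair the cultures, and not every library correlated best with its own number. With the block, the ratios kept their means, such as 1.13 for LMNB2/LMNB1, with an exact p of 0.25, the smallest that 3 pairs allow. Depth limits HMGB3 most, and the 3 libraries per group limit every ratio.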

Other observations

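The count table carries its own gene ontology terms, which were read after the table was seen. Its term for the nuclear lamina holds LMNB1 and EMD but not LMNA or LMNB2. Of its 8 tested genes, 3 were higher and 5 lower, with a median log₂FC of -1.04. SUV39H1, a histone methyltransferase that marks heterochromatin, was the lowest of them after LMNB1, with a log₂FC of -3.26 (SE 0.145, edgeR adjusted p = 2.39e-13). CASK and NUP35 fell as well (log₂FC -1.69 and -1.47). Its term for binding to four-way DNA junctions holds all 3 HMGB genes, and 2 of its 9 tested genes were higher and 6 lower (median log₂FC -0.77). GEN1, a nuclease that cuts such junctions, went from 7.49 ± 0.431 to 0.148 ± 0.0409 normalized CPM (SD, n = 3), a log₂FC of -5.63 (edgeR adjusted p = 9.35e-14), whereas YY1 had a log₂FC of 0.10 (edgeR adjusted p = 0.136). The term for the nuclear inner membrane holds LMNB1, LMNB2, LBR, and EMD. Of its 33 tested genes, 10 were higher and 13 lower, with a median of -0.01. Its term for lamin binding, which holds LBR and TMPO, had 4 higher and 4 lower of 8 tested genes (median log₂FC -0.00088). The counts and median of each term include those of the 9 genes that it holds, so they are not independent of the results above. The genes in this paragraph were picked with their values known.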
